A study of Mus musculus with 8 samples.

Results

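Paneth cells sit at the base of small intestinal crypts and release granules of antimicrobial proteins. The genes described here are 6 listed products of these cells: Lyz1, Pla2g2a, Mmp7, Defa31, Ang4 and Itln1. Their probe sets were found by gene symbol in the platform annotation, which gave 7 of the 22626 probe sets tested and 5 of the 12393 genes on the array. Lyz1 had 3 probe sets, and Pla2g2a, Mmp7, Defa31 and Itln1 had 1 each. No probe set used here carries the symbol Ang4, so Ang4, a ribonuclease of the granules, was not analysed here.

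RNA of intestinal epithelial cells was measured on 8 Affymetrix arrays, with 2 arrays in each of 4 genotype groups of mice. The groups were wild type (WT), animals with the AA allele of IKKα on both chromosomes (IKKa-AA), mice with a constitutively active β-catenin (bCATca), and mice carrying both changes (bCATca_IKKa-AA, or double mutants). All mice, WT included, carried a mixed background of C57BL/6 x 129Sv x FVB according to the labels, received tamoxifen by gavage on 5 days and were sampled 15 days after the first dose. The series asked how IKKα, a kinase of the NF-κB pathway, acts on the crypt growth that stabilised β-catenin sets off. The series describes the β-catenin change as tamoxifen-induced and restricted to intestinal epithelial cells. The driver of the recombination, the tissue in which IKKα is altered, the part of the gut sampled and the age of the mice are not given in the sources used here. Nothing in the labels says that the arrays of a group came from separate animals, so the p-values reflect only how far these samples differ, which may be a technical matter.

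Paneth cells depend on Wnt signals, and β-catenin with TCF/LEF factors switches on part of their gene programme. Lysozyme, the product of Lyz1, cuts bacterial cell walls. Defa31 encodes an α-defensin, a small peptide that breaks bacterial membranes, and in mice matrilysin, the protease encoded by Mmp7, cuts the defensin precursors to their active form. Pla2g2a encodes a secreted phospholipase that attacks bacterial membranes. It is also known as Mom1, a modifier of intestinal tumour number in mice that carry an Apc mutation. Laboratory strains differ in whether they carry an intact Pla2g2a, and C57BL/6 mice do not. Which Pla2g2a alleles these mice of mixed background carried is not given in the sources used here. Itln1 encodes intelectin, a lectin that binds sugars of microbes.

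In the GRCm38.p6 annotation from RefSeq, Lyz1 lies at chr10:117287795-117292868, with its close relative Lyz2 5522 bases away at chr10:117277541-117282272. Pla2g2a lies at chr4:138831857-138835189 and is annotated there as a transcribed pseudogene. Mmp7 lies at chr9:7692090-7699585, Defa31 at chr8:21191573-21192550, Itln1 at chr1:171518123-171535325 and Ang4 at chr14:51763892-51773590. These are gene spans, exons and introns together, and the positions of the probes within them were not analysed here.

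The 250 bases before a RefSeq start site of 4 measured members are shown because β-catenin acts on promoters through TCF/LEF factors, and Mmp7 changed with active β-catenin while Lyz1, Itln1 and Defa31 did not pass the test in that comparison. The sequences are from RefSeq on GRCm38.p6, written 5′ to 3′ on the strand of the gene. The letters searched on both strands are in capitals: CTTTGA and CTTTGT, the core of the TCF/LEF motif, which do not overlap each other here, and TATAAA, the core of the TATA box.
Mmp7, chr9:7691840-7692089, plus strand: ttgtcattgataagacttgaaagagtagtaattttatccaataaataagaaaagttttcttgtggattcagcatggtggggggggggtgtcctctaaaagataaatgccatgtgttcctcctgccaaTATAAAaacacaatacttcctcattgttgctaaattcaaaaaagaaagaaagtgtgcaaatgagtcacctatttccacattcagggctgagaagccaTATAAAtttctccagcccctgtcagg
Lyz1, chr10:117292869-117293118, minus strand: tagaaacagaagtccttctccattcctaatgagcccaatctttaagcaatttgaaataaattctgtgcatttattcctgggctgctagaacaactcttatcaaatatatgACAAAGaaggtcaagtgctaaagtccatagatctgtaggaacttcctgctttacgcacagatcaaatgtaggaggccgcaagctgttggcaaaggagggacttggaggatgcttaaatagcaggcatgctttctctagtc
Itln1, chr1:171535295-171535544, minus strand: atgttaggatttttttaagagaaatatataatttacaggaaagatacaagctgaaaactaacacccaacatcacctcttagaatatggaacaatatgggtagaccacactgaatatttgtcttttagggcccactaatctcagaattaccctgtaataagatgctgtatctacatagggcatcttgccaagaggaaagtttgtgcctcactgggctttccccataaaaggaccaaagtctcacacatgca
Defa31, chr8:21191323-21191572, plus strand: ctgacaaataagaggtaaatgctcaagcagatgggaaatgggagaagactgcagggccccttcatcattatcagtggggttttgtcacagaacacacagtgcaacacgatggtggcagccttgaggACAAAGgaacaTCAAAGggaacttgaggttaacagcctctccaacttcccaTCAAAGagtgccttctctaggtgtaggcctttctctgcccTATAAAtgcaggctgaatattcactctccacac
The Mmp7 window printed holds TATAAA at 2 places and neither TCF/LEF core. RefSeq gives Mmp7 another start site, whose window at chr9:7692091-7692340 holds CTTTGA once and CTTTGT once and no TATAAA, so the gene is not without these letters near its starts. The Lyz1 window holds CTTTGT once, on the opposite strand, as ACAAAG. The Defa31 window holds CTTTGA at 2 places and CTTTGT once, all on the opposite strand, and TATAAA once. The Itln1 window holds none of these letters. Part of the Itln1 window, and the whole window of the other Mmp7 start site, lie within the gene spans given above. Over 32851 windows of the same length, 13.8% held CTTTGA, 16.5% held CTTTGT, 27.6% held either of these, and 12.4% held TATAAA. A match describes the letters in a window and does not show that a factor binds there. The promoter of Pla2g2a is named only.

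Values below are log2 intensities, and a change is a difference between log2 group means, given with its standard error (SE) from a model fitted with limma to all probe sets. Adjusted p-values are limma's with Benjamini-Hochberg adjustment over 22626 probe sets, and a probe set passed under 0.05. Median linear intensities lay between 50.9 and 53.8 on the 8 arrays. As a guide to background, genes that the gut does not use read at most 4.92 in 90% of their readings. Replicates were furthest apart in the IKKa-AA group: over all probe sets, the SD of the difference between replicates was 0.41 for IKKa-AA, 0.30 for WT, 0.33 for bCATca and 0.34 for double mutants. The genotypes were taken from the sample labels, and no transcript was used to check them. Lyz1, Mmp7, Pla2g2a and Itln1 each had a probe set above the guide on all 8 arrays, as had all 9 measured enterocyte markers of 12, so both the epithelium and Paneth cell products were present in every sample.

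Among the 7 probe sets, 2 rose with active β-catenin alone (Pla2g2a and Mmp7), where 4.38% of all probe sets rose and 3% fell. In double mutants against bCATca 1 fell (Pla2g2a), where 0.217% of all probe sets rose and 0.544% fell. In double mutants against WT 1 rose (Pla2g2a), where 0.614% rose and 0.265% fell. In the interaction, which subtracts the β-catenin effect at normal IKKα from the effect with the AA allele, 1 was negative (Pla2g2a), where 0.102% of all probe sets were positive and 0.137% negative. No member passed in IKKa-AA against WT, where 0% of all probe sets rose and 0.00442% fell, or in double mutants against IKKa-AA, where 0.00442% rose and 0% fell. At an unadjusted p under 0.05, 1 of 7 differed in the first of these, where 11.9% of all probe sets did, and 2 of 7 in the second, where 7.11% did. Over the 7 probe sets, the median change was 0.11 in bCATca against WT and -1.06 in double mutants against bCATca, where it was -0.003 and 0.02 over all probe sets. These medians are the changes of Defa31 (SE 1.40) and of the Lyz1 probe set 1439426_x_at. Since 3 of the 7 probe sets are of Lyz1, they do not summarise the products evenly. The comparisons share groups: the bCATca arrays enter both bCATca against WT and double mutants against bCATca, so an unusual bCATca value moves both. In these bulk samples, fewer cells of a type and less RNA per cell cannot be told apart.

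Pla2g2a was the member that passed in the most comparisons, 4 of 6. It read 7.14 and 6.97 on the WT arrays, 7.85 and 7.56 with IKKa-AA, 10.61 and 10.88 with bCATca, and 8.96 and 9.57 on the double mutant arrays. All 4 groups were apart: WT was lowest, IKKa-AA next, then double mutants, and bCATca highest. With active β-catenin alone Pla2g2a rose by 3.69 (SE 0.22, n = 2 against 2, 95% interval 3.19 to 4.20), or 12.95-fold, with a limma adjusted p of 0.000163. Double mutants stood 2.21 above WT (SE 0.22, adjusted p = 0.0143 by limma), or 4.64-fold, and 1.48 below bCATca (SE 0.22, 95% interval 0.98 to 1.99), or 2.79-fold, with a limma adjusted p of 0.0283. The neighbours WT and IKKa-AA differed by 0.66, and IKKa-AA and double mutants by 1.56, and neither passed the test (limma adjusted p = 0.344 and 0.129). The latter passed without IKKa-AA replicate 1, at 1.70 (0.0278).

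The β-catenin effect on Pla2g2a was thus 3.69 with normal IKKα and 1.56 with the AA allele, and the interaction was -2.14 (SE 0.31, limma adjusted p = 0.0487). That call stands close to the threshold and was lost under 11 of 14 other settings, with adjusted p up to 0.175. The fall from bCATca to double mutants kept its sign under all alternatives but was no longer past the threshold without either WT array (0.0699 for each), without either bCATca array (0.0867 and 0.193) or without double mutant replicate 1 (0.136). The rise from WT to double mutants was lost without either WT array (0.0829 and 0.0622). The rise from WT to bCATca passed under all 15 settings tried.

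**Figure D1:**
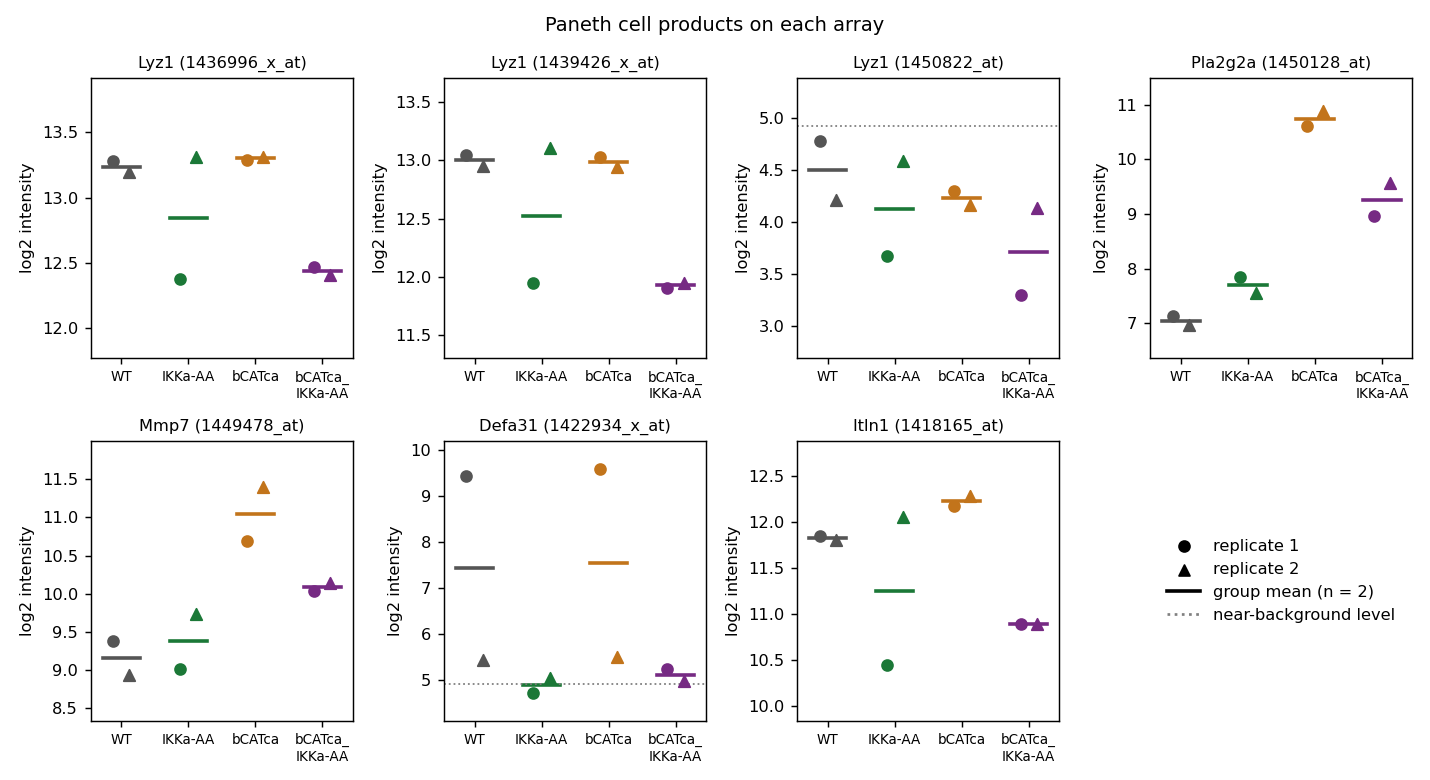
Log2 intensity (vertical axis) of the 7 probe sets of 5 Paneth cell products in the 4 genotype groups (horizontal axis), with a point for each array and a bar at the group mean. Pla2g2a reads highest on both bCATca arrays, the bright Lyz1 probe sets and Itln1 are low on both double mutant arrays and on IKKa-AA replicate 1, and Defa31 is high on WT replicate 1 and bCATca replicate 1.

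Mmp7, the protease that activates the defensins, followed the same order of group means at smaller distances. It read 9.38 and 8.94 on the WT arrays, 9.02 and 9.74 with IKKa-AA, 10.69 and 11.40 with bCATca, and 10.04 and 10.14 on the double mutant arrays. The WT and IKKa-AA arrays overlapped, and the double mutants lay between them and bCATca without overlap. Mmp7 rose by 1.89 in bCATca against WT (SE 0.30, 95% interval 1.21 to 2.57), or 3.70-fold, with a limma adjusted p of 0.0107. The call was lost without WT replicate 2 (0.0855) or without bCATca replicate 2 (0.0775). Double mutants stood 0.93 above WT (limma adjusted p = 0.182, and 0.038 in a fit of those groups alone), 0.71 above IKKa-AA (0.682) and 0.96 below bCATca (0.209), and none of these passed with all arrays. The interaction was -1.18 (SE 0.42, 95% interval -2.14 to -0.22, limma adjusted p = 0.271). A smaller β-catenin effect on Mmp7 in IKKa-AA mice was therefore not established at 2 arrays a group.

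**Figure D2:**
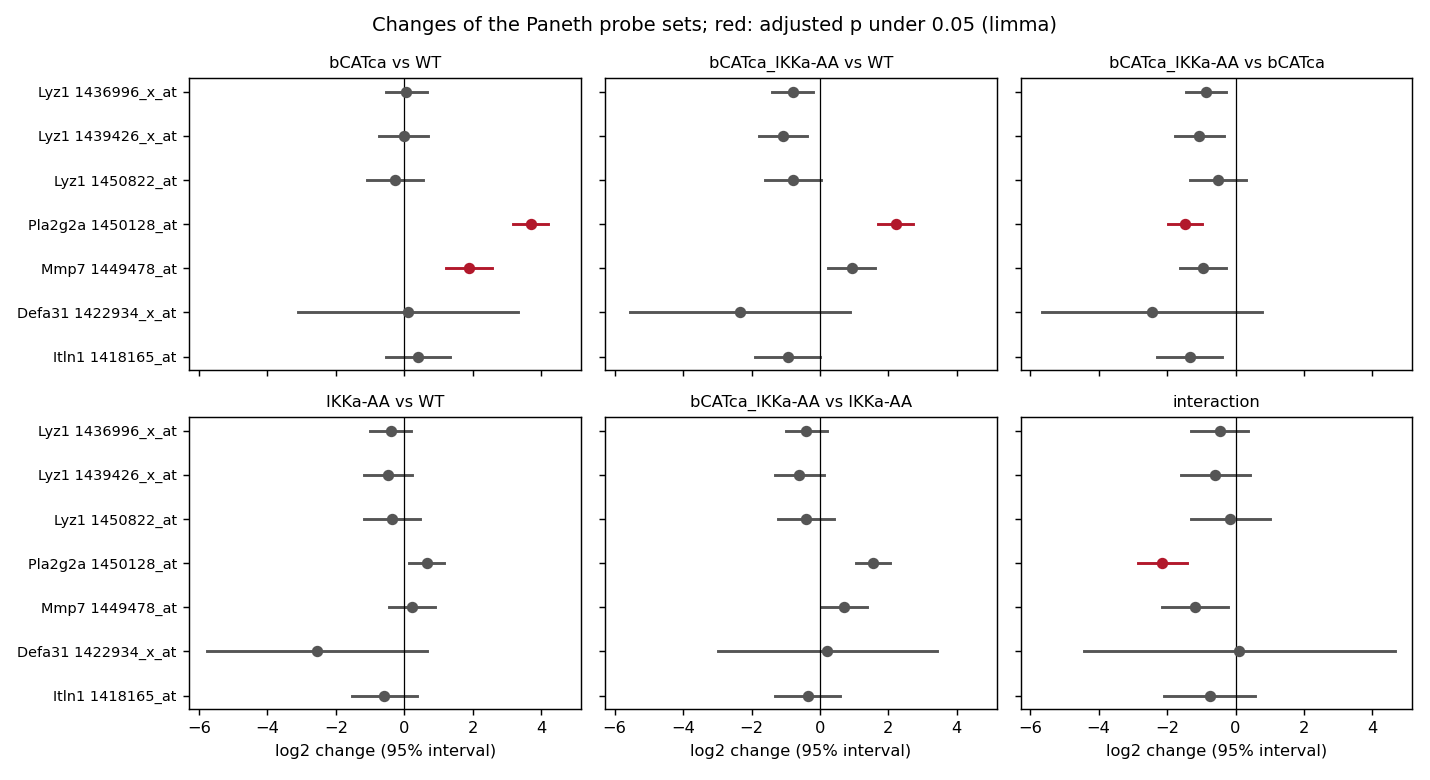
Change in log2 intensity (horizontal axis) of each of the 7 probe sets in the 6 comparisons, as points with 95% intervals from the limma model, red for an adjusted p under 0.05. Pla2g2a passes in 4 of the panels and Mmp7 in bCATca against WT, and the intervals of Defa31 span several log2 units.

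Lyz1 was close to the same level in WT and bCATca. Its brightest probe set, 1436996_x_at, read 13.28 and 13.20 on the WT arrays, 12.37 and 13.31 with IKKa-AA, 13.29 and 13.31 with bCATca, and 12.47 and 12.41 on the double mutant arrays. The double mutant arrays and IKKa-AA replicate 1 were low, and the other 5 arrays read between 13.20 and 13.31. The change in bCATca against WT was 0.06 (SE 0.26, 95% interval -0.53 to 0.66). Double mutants stood 0.86 below bCATca (SE 0.26), or 1.82-fold, and 0.80 below WT, and neither passed (limma adjusted p = 0.202 and 0.193).

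The probe set 1439426_x_at, also paired with Lyz1, was low on the same 3 arrays. It read 13.05 and 12.95 on the WT arrays, 11.94 and 13.10 with IKKa-AA, 13.03 and 12.95 with bCATca, and 11.90 and 11.95 on the double mutant arrays. Double mutants were 1.06 below bCATca and 1.07 below WT (limma adjusted p = 0.189 and 0.153). The other Lyz1 probe set, 1450822_at, read between 3.29 and 4.78, near background on all 8 arrays. Probe sets whose names end in _x_at can read related transcripts, so the Lyz1 values may include Lyz2, the lysozyme of macrophages. Lyz2 has a probe set of its own, 1423547_at, which read 8.83 and 8.69 on the WT arrays, 7.86 and 8.91 with IKKa-AA, 8.84 and 9.08 with bCATca, and 7.69 and 7.74 on the double mutant arrays. It was 1.24 lower in double mutants than in bCATca (limma adjusted p = 0.107), low on the same 3 arrays as Lyz1. Of 12 myeloid markers, Tyrobp, Fcer1g and Laptm5 were low on these arrays as well. Csf1r was not, Cd14 read above both WT arrays there, and Ctss was highest on the double mutant arrays. Their values are given among the other cell types. The part of myeloid cells in the Lyz1, Lyz2 and Itln1 results was not tested.

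Itln1 had the same low arrays. It read 11.85 and 11.81 on the WT arrays, 10.44 and 12.05 with IKKa-AA, 12.18 and 12.28 with bCATca, and 10.89 on both double mutant arrays. It stood 1.34 lower in double mutants than in bCATca (SE 0.41, 95% interval of the change -2.29 to -0.39), or 2.53-fold, and 0.94 lower than in WT, and neither passed (limma adjusted p = 0.209 and 0.323). The change in bCATca against WT was 0.40 (SE 0.41, adjusted p = 0.576).

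The spread that these tests used comes in large part from the IKKa-AA group, in which replicate 1 was low and replicate 2 was at the WT level. Set against the WT mean, the brightest Lyz1 probe set was at -0.86 on IKKa-AA replicate 1 and at 0.07 on replicate 2, and at -0.77 and -0.83 on the double mutant arrays. Itln1 was at -1.39 and 0.23 on the IKKa-AA arrays and at -0.94 on both double mutant arrays. With either IKKa-AA array left out, which also leaves that group out of the estimate of the spread, double mutants against bCATca passed for Itln1 (limma adjusted p = 0.00373) and for the Lyz1 probe sets 1436996_x_at and 1439426_x_at (0.0201 and 0.00933). Double mutants against WT then passed as well, at 0.00948, 0.0193 and 0.00532 in the same order. IKKa-AA against WT depended on which array was kept: Itln1 was 1.39 lower on replicate 1 alone (adjusted p = 0.0122) and 0.23 higher on replicate 2 alone. The brightest Lyz1 probe set was 0.86 lower on replicate 1 alone (adjusted p = 0.0497). Against IKKa-AA replicate 2 alone, double mutants passed for Itln1, at -1.16, and for 1439426_x_at, at -1.18 (0.0215 for each), and the interaction of Itln1 passed as well, at -1.57 (0.034).

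**Figure D3:**
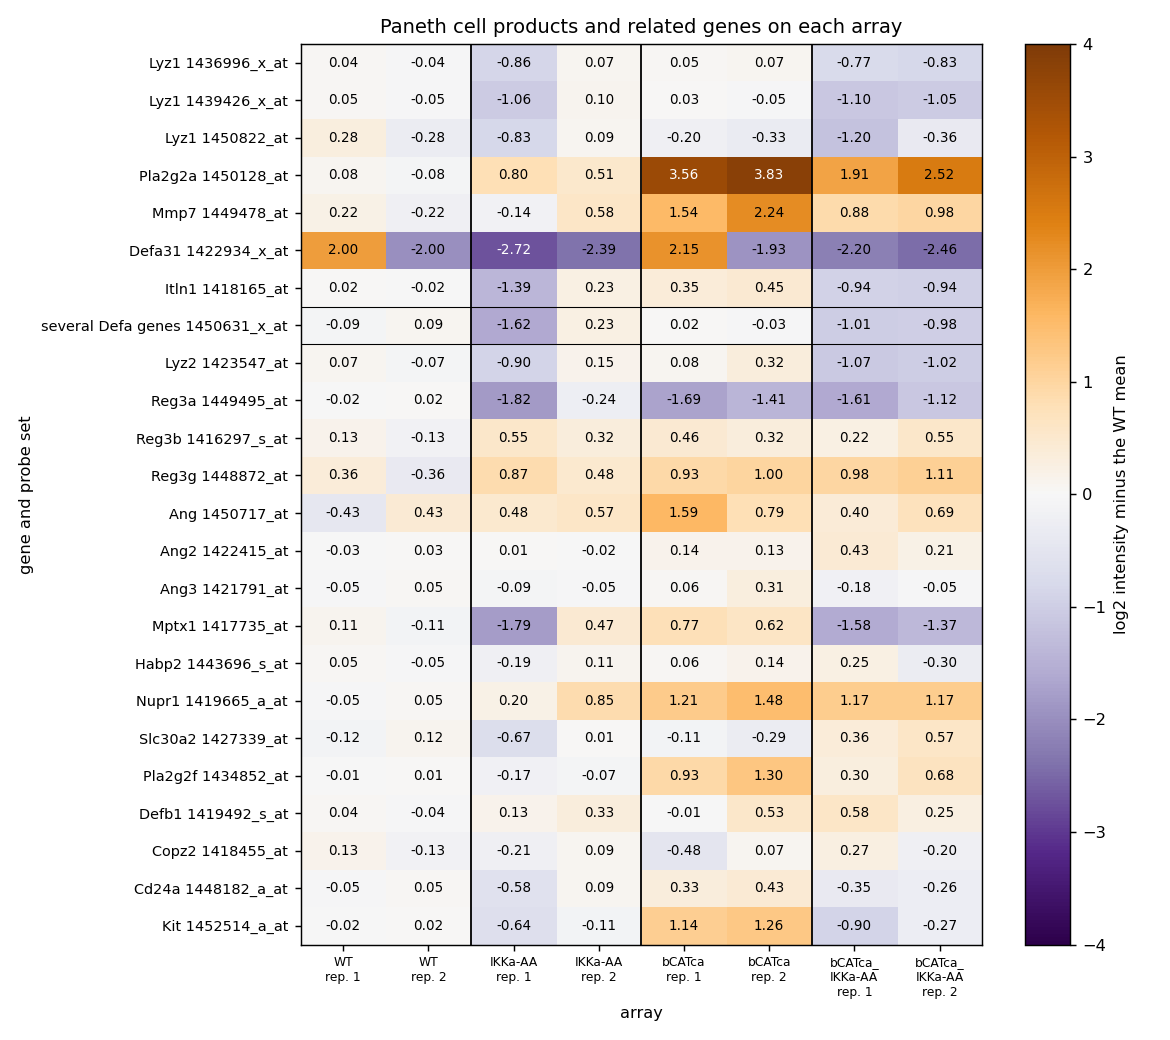
Log2 intensity minus the WT mean (colour and printed number) on each of the 8 arrays (columns) for the 7 Paneth cell product probe sets, a probe set paired with several α-defensin genes, and the 16 measured genes of the list of other granule and surface genes (rows). IKKa-AA replicate 1 and the double mutant arrays are low for the bright Lyz1 probe sets, Itln1, Lyz2 and Mptx1, and IKKa-AA replicate 2 is not.

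The α-defensins form a family of near-identical genes, and their probe sets cannot be assigned to a member with certainty. The probe set named Defa31, 1422934_x_at, split the replicates of 2 groups. It read 9.44 and 5.44 on the WT arrays, 4.72 and 5.05 with IKKa-AA, 9.58 and 5.50 with bCATca, and 5.24 and 4.97 on the double mutant arrays. It was high on WT replicate 1 and bCATca replicate 1, and on the other 6 arrays it read between 4.72 and 5.50, around the background guide of 4.92. With an SE of 1.40 no comparison could be read: the change was 0.11 in bCATca against WT (95% interval -3.10 to 3.32), -2.55 in IKKa-AA against WT and -2.44 in double mutants against bCATca, with limma adjusted p of 0.971, 0.495 and 0.501.

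Another α-defensin probe set, 1450631_x_at, is paired with several defensin genes and did not show this split. It read 12.36 and 12.53 on the WT arrays, 10.82 and 12.68 with IKKa-AA, 12.46 and 12.41 with bCATca, and 11.44 and 11.47 on the double mutant arrays. Its low arrays were those of Lyz1 and Itln1. Double mutants stood 0.98 below bCATca (limma adjusted p = 0.413, and 0.0129 without either IKKa-AA array). Defa3 read between 2.97 and 3.42, near background on all arrays.

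The other known Paneth cell genes were read from lists. Of 20 other granule and surface genes 16 were measured, and 4 rose and 0 fell in bCATca against WT, where 4.38% of all probe sets rose and 3% fell. Their median change was 0.32, against -0.003 over all probe sets. Nupr1, a stress-induced chromatin regulator, rose by 1.34 (SE 0.21, limma adjusted p = 0.0112). It read 6.23 and 6.32 in WT and 7.48 and 7.76 in bCATca. Pla2g2f, a phospholipase related to Pla2g2a, rose by 1.12 (adjusted p = 0.0122), though only 1 of its 2 probe sets had that sign. Kit, a receptor tyrosine kinase found on Paneth cells, rose by 1.20 (adjusted p = 0.0248). Reg3g, a bactericidal lectin that other gut epithelial cells make too, rose by 0.97 (adjusted p = 0.047). These 4 calls were each lost in 3 to 5 of the 8 fits without 1 array.

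Kit was also the member of that list that passed in another comparison. It read 5.02 and 5.05 on the WT arrays, 4.40 and 4.92 with IKKa-AA, 6.18 and 6.29 with bCATca, and 4.13 and 4.76 on the double mutant arrays. It fell in double mutants against bCATca (limma adjusted p = 0.0193), and since both double mutant readings were below the background guide the size of the fall was not measured. That call was lost in 5 of the 8 fits without 1 array. Of the 16 genes, 0 rose and 1 fell in double mutants against bCATca, where 0.217% of all probe sets rose and 0.544% fell. The median change of the 16 there was -0.15, and none passed in the other 4 comparisons. Mptx1, a pentraxin of the gut epithelium, read 8.69 and 8.47 on the WT arrays, 6.79 and 9.05 with IKKa-AA, 9.35 and 9.20 with bCATca, and 6.999 and 7.208 on the double mutant arrays. It thus shared the low arrays of Lyz1 and Itln1, and is named after its values were seen. Mptx1 was 2.17 lower in double mutants than in bCATca (SE 0.57, limma adjusted p = 0.148). Cd24a of the same list also read below both WT arrays on IKKa-AA replicate 1 and on the double mutant arrays. Other genes of the list did not share this. Slc30a2 read 7.90 on IKKa-AA replicate 1 but 8.94 and 9.14 on the double mutant arrays, against 8.45 and 8.69 in WT. Reg3g and Nupr1 read above both WT arrays on IKKa-AA replicate 1 and on the double mutant arrays.

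Of 22 regulators and niche signals of Paneth cells 20 were measured, and 1 rose and 1 fell in bCATca against WT. Over all probe sets 4.38% rose and 3% fell in that comparison, so these counts are near those shares. The median change of the 20 was -0.08. Ephb3, a receptor that keeps Paneth cells at the crypt base, rose by 1.50 (SE 0.21, limma adjusted p = 0.00706). It read 6.05 and 6.07 on the WT arrays, 6.05 and 6.53 with IKKa-AA, 7.77 and 7.36 with bCATca, and 6.63 and 6.94 on the double mutant arrays. Ern1, the stress sensor IRE1α of the endoplasmic reticulum, fell by 1.05 (adjusted p = 0.0104). It read 6.24 and 5.89 in WT and 5.10 and 4.94 in bCATca. The bCATca readings are close to the background guide of 4.92, which may limit the size of the fall. Sox9, a factor required for Paneth cells, read 7.59 and 6.50 in bCATca against 5.92 on both WT arrays, a change of 1.13 that did not pass (limma adjusted p = 0.0749). Atoh1, the factor that sets the secretory fate, changed by -0.13 (95% interval -0.45 to 0.18). The calls of Ephb3 and Ern1 were each lost in 2 of the 8 fits without 1 array. None of the 20 passed in any of the other 5 comparisons.

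**Figure D4:**
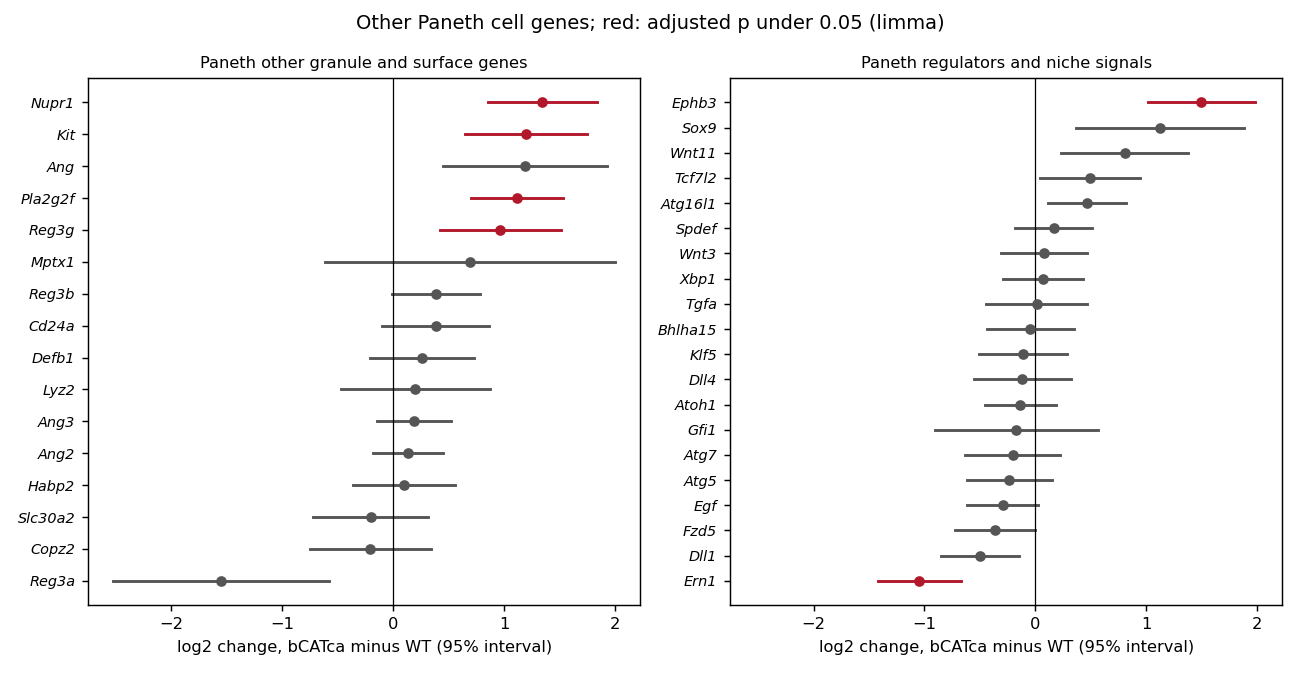
Change in log2 intensity in bCATca against WT (horizontal axis) of the 16 measured granule and surface genes (left) and the 20 measured regulators and niche signals (right), as points with 95% intervals from the limma model and in red for an adjusted p under 0.05. Nupr1, Kit, Pla2g2f, Reg3g and Ephb3 lie above 0 and Ern1 below, and the wide interval of Reg3a, at -1.55, does not pass.

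Other cell types that the preparation can hold were read through their markers. Goblet cells share the secretory lineage and express several of these genes, Itln1 among them: all 10 measured goblet markers of 12 were above the background guide on every array, and their summed linear intensities were 35237 and 33959 for WT, 30381 and 34103 for IKKa-AA, 31597 and 28383 for bCATca, and 26272 and 27270 for double mutants. The sums were lowest on the double mutant arrays, where Itln1 was low. Itln1 was lowest on IKKa-AA replicate 1 (10.44) and highest on bCATca replicate 2 (12.28), and of these 2 arrays bCATca replicate 2 had the lower sum. The part of goblet cells in the Itln1 result was not tested. In bCATca against WT, where 4.38% of all probe sets rose and 3% fell, 1 goblet marker rose (Spink4, by 0.70, limma adjusted p = 0.0364). None passed in double mutants against bCATca, where the median change of the goblet markers was -0.05. Of 12 myeloid markers, 6 were near background on all arrays (Cd68, Adgre1, Itgam, Cd163, Mrc1 and Aif1). In bCATca against WT and in double mutants against WT 1 rose (Cd14), where 4.38% and 0.614% of all probe sets rose. The sum of all 12 ran from 2312 on IKKa-AA replicate 1 to 3516 on double mutant replicate 1. The sum rests mostly on Ctss, a lysosomal protease, which read between 10.87 and 11.57. Of the other markers not near background on all arrays, 3 were low on IKKa-AA replicate 1 and both double mutant arrays. Lyz1, Lyz2, Itln1 and Mptx1 were low on the same arrays, and the 3 markers are named after their values were seen. Tyrobp, a signalling adaptor of myeloid and natural killer cells, read 8.20 and 8.06 on the WT arrays, 5.39 and 8.20 with IKKa-AA, 7.83 and 7.30 with bCATca, and 6.05 and 5.28 on the double mutant arrays. Fcer1g, a chain of Fc receptors, read 8.36 and 8.11 on the WT arrays, 5.80 and 8.08 with IKKa-AA, 7.60 and 7.44 with bCATca, and 6.59 and 5.80 on the double mutant arrays. Laptm5, a lysosomal protein of blood cells, read 7.49 and 7.13 on the WT arrays, 5.66 and 7.14 with IKKa-AA, 7.05 and 6.60 with bCATca, and 5.26 and 4.38 on the double mutant arrays. The last Laptm5 reading is below the background guide. None of the 3 passed in double mutants against bCATca (limma adjusted p = 0.313, 0.389 and 0.103). These 3 markers thus moved with the low Paneth cell products, and other myeloid markers did not. Csf1r read between 5.56 and 5.85 over the 8 arrays, and Ctss was highest on the double mutant arrays. Cd14 read 7.32 on IKKa-AA replicate 1 and 7.19 and 7.51 in double mutants, against 6.31 and 6.35 in WT. The median change of the 12 myeloid markers in double mutants against bCATca was -0.21. The part of RNA of other cells in the values of the products was not tested. Pancreatic acinar markers (8 measured of 11) stood at a median of 2.17 above the WT mean on double mutant replicate 1 and -0.07 on replicate 2. Between these arrays Lyz1 and Itln1 differed little, while Pla2g2a read 8.96 and 9.57. The part of acinar RNA in these values was not tested. Of 9 measured stem cell markers of 10, 6 rose in bCATca against WT, where 4.38% of all probe sets rose. The median change of the stem cell markers was 1.78, beside the rises of Pla2g2a and Mmp7. In double mutants against bCATca their median change was -0.79 and none passed, where 0.217% of all probe sets rose and 0.544% fell. In the interaction their median was -1.23, and 1 was negative past the test, where 0.137% of all probe sets were. In double mutants against WT 2 rose, where 0.614% of all probe sets did. Whether a changed share of crypt base cells has a part in the changes of Pla2g2a and Mmp7 was not tested.

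To show which other genes shared each pattern, Pearson's r was computed over the 8 arrays between each member and 7003 genes with a mean above the median. These r values describe 8 arrays that share groups and normalization, and carry no test. Igfbp4 (r = 0.996), Myc (0.991) and Tgfbr2 (0.991) were most like Pla2g2a. Igfbp4, which encodes a binding protein of insulin-like growth factors, read 7.28 and 7.38 on the WT arrays, 8.40 and 8.02 with IKKa-AA, 11.02 and 11.28 with bCATca, and 9.51 and 10.14 on the double mutant arrays, the same order of groups as Pla2g2a. Glul (0.961), Mycl (0.957) and Slc25a4 (0.956) were most like Mmp7. Glul encodes glutamine synthetase. Between the members themselves r was 0.93 for Pla2g2a with Mmp7 and 0.97 for Itln1 with the brightest Lyz1 probe set, against -0.004 for Pla2g2a with that Lyz1 probe set, so the members formed 2 patterns over these arrays beside that of Defa31.

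S100a13 (r = 0.978), Ppp1r21 (0.976) and the immunoglobulin probe set 1452463_x_at (0.976) were most like the brightest Lyz1 probe set. The probe set 1452463_x_at, named for a κ light chain segment and so for B and plasma cells, read 7.51 and 7.73 on the WT arrays, 4.19 and 8.55 with IKKa-AA, 9.06 and 7.97 with bCATca, and 4.10 and 3.51 on the double mutant arrays. A transcript of another cell type was thus low on the same 3 arrays as Lyz1, Itln1 and Mptx1, and its part in their result was not tested. Mptx1 (0.988), Tspan9 (0.973) and S100a13 (0.971) were most like Itln1. H2-Bl (0.887), a class I histocompatibility gene, BC005624 (0.886) and Tdrd3 (0.875) were most like Defa31. H2-Bl read 10.90 and 9.21 on the WT arrays, 7.24 and 7.59 with IKKa-AA, 10.28 and 6.70 with bCATca, and 7.47 and 7.59 on the double mutant arrays, and was thus also high on WT replicate 1 and bCATca replicate 1. Over all probe sets, a comparison made after the values were seen, 1420598_x_at, which carries no symbol here, was most like Defa31 (r = 0.991). It read 10.18 and 7.83 on the WT arrays, 7.32 and 7.93 with IKKa-AA, 10.17 and 7.70 with bCATca, and 7.72 and 7.41 on the double mutant arrays.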

How the data were processed

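RNA of 8 samples was measured on Affymetrix arrays. The authors deposited linear intensity values, 1 per probe set and array. RMA and affy were used, per the submitters' processing notes, and their versions are not given in the sources used here. As a method, RMA sets the arrays to a common distribution, so the values show relative changes. The design set the tests on log2 values, with log2 to be taken first of linear ones, so log2 of each deposited intensity was taken. Groups came from the sample labels. Control probe sets were left out, which gave 22626. Symbols came from the platform annotation, updated through RefSeq. A model with 1 mean per group was fitted with limma 3.58.1 in R 4.3.3 (lmFit, eBayes), with 4 residual and 4.41 prior degrees of freedom. The interaction and 5 pairwise comparisons were adjusted by Benjamini-Hochberg, and intervals are at 95%. The fit was tested on simulated data.

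The members and the lists were chosen with earlier results of these data known. All probe sets of the 6 members were described. From each list the count and up to 3 genes with the smallest p were named. Mptx1, Cd24a, Slc30a2, Sox9, Atoh1, Reg3a, myeloid markers other than Cd14 and the fourth gene of a list were added after their values were seen. The probe set with the highest mean stood for a gene of a list. Lists read were defensins, other granule genes, regulators, goblet, myeloid, pancreatic acinar, enterocyte and stem cell markers. The background guide is the 90th percentile of readings of 8 genes that the gut does not use. Other normalizations, filters, prior settings, a replicate block and fits without 1 array were tried. The number of arrays limits the precision. Tables and figures were made with Python 3.11.15, pandas 2.3.3 and matplotlib 3.10.9.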

Additional observations from a re-analysis of the deposited data

Results flagged for a closer look

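The effect of active β-catenin on Pla2g2a was smaller in IKKa-AA mice than in mice with normal IKKα, and the test of the difference itself passed narrowly. The interaction was -2.14 on the log2 scale (SE 0.31, limma adjusted p = 0.0487). It passed under 3 of 14 other settings and was lost under 11, among them both other normalizations and 6 of the 8 fits without 1 array, with adjusted p up to 0.175. Pla2g2a was higher in bCATca than in WT on both arrays, by 3.69 in the mean, and higher in double mutants than in IKKa-AA on both arrays, by 1.56.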

How the results depend on the processing

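Besides the reported fit, 15 settings were tried. Counts below are of probe sets past the threshold. In bCATca against WT, 1669 passed, 994 with a replicate block and 306 to 2575 without 1 array. In IKKa-AA against WT, 1 passed, 0 without dim probe sets or with the block, 6 with a trended robust prior, and 0 to 399 without 1 array. In double mutants against bCATca, 172 passed, 79 without dim probe sets, 88 with the block, 333 in a fit of only those groups, and 17 to 512 without 1 array. In double mutants against IKKa-AA, 1 passed, 7 with 1 probe set per gene, 2 with the trended prior, and 1 to 202 without 1 array. In double mutants against WT, 199 passed, 90 with the block, 948 in a fit of only those groups, and 12 to 803 without 1 array. In the interaction, 54 passed, 27 without dim probe sets, 11 with 1 probe set per gene, 104 with the trended prior, 0 with the block, and 0 to 261 without 1 array. Of the 7 Paneth probe sets, the number without 1 array ran from 1 to 2 in bCATca against WT, 0 to 3 in IKKa-AA against WT, 0 to 4 in double mutants against bCATca, 0 to 3 against IKKa-AA and 0 to 4 against WT, and 0 to 1 in the interaction. Fits of only the groups compared gave 4 in double mutants against bCATca (Pla2g2a, Itln1 and 2 of Lyz1) and 5 against WT (Mmp7 as well), and the block gave 0 against bCATca. In the interaction, quantile or cyclic loess normalization, leaving out dim probe sets, 1 probe set per gene and the block each gave 0.

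Signs turned only for changes of the 7 probe sets that had not passed in the reported fit. In bCATca against WT, Lyz1 1439426_x_at was 0.0518 after quantile normalization and -0.0589 to 0.033 without 1 array, 1450822_at -0.55 to 0.0182, and Defa31 -1.94 to 2.15. In IKKa-AA against WT, without 1 array, Lyz1 1436996_x_at ran from -0.86 to 0.0716, 1439426_x_at from -1.06 to 0.10, 1450822_at from -0.83 to 0.0903, Mmp7 from -0.14 to 0.58 and Itln1 from -1.39 to 0.23. In double mutants against IKKa-AA, 1436996_x_at ran from -0.87 to 0.0636, 1450822_at from -0.87 to 0.046 and Itln1 from -1.16 to 0.45. In the interaction, 1450822_at ran from -0.61 to 0.31, Defa31 from -1.93 to 2.16 and Itln1 from -1.57 to 0.0501. The cause of these shifts was not tested. Of the single probe set results under all settings, 645 kept their direction and side of the threshold, 35 newly passed, 47 no longer passed and 23 turned sign. The correlation of replicate differences between groups ran from -0.556, for IKKa-AA with bCATca, to 0.199, for WT with IKKa-AA. Replicate numbers thus gave no common pairing over the groups. Whether arrays share batches in another order was not tested. The block is given here only, and with it the fall of Pla2g2a in double mutants against bCATca had a limma adjusted p of 0.0601. With 2 arrays a group, and Lyz1 1450822_at near background, small changes were not detectable.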

Other observations

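Of 9 measured enterocyte markers, none passed in any of the 6 comparisons, and their median change was -0.66 in bCATca against WT and 0.36 in double mutants against bCATca. The Paneth-related Reg3a, a lectin that binds bacterial cell walls, was 1.55 lower in bCATca than in WT on the log2 scale and did not pass (limma adjusted p = 0.0627). Its levels on the single arrays followed neither pattern of the members, since both bCATca arrays were low with IKKa-AA replicate 1 and the double mutants. Ang, a ribonuclease related to Ang4, was 1.19 higher in bCATca than in WT (limma adjusted p = 0.0608).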
